A study of Homo sapiens with 6 samples.

Results

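The DNA replication origin and fork genes were examined in RNA-seq libraries of A2780 cells, an established human ovarian cancer line that the labels call serous. Members were the rows of the deposited transcript table whose gene name was one of 45 listed names, summed per gene. They comprised 9 licensing genes, 12 helicase genes, 9 genes of the sliding clamp, its loader and the RPA complex, 11 polymerase and primer processing genes and 4 nucleotide supply genes. Of these 45 genes, 38 had rows in the table (49 transcripts), out of 16571 gene names and 21368 transcripts in all. ORC1, ORC2, ORC6, MCM2, GINS1, POLD3 and LIG1 were not analysed here. Of the 38 genes, 36 had enough counts to be tested among 10695 genes, and RFC2 and POLE2 did not.

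Cells of 3 libraries (pGIPZ-NC) carried the control lentiviral vector, and cells of the other 3 (shUSP39) carried a short hairpin RNA against USP39, also delivered by lentivirus. Both groups therefore share the parental line and the infection. The study's methods place 2 hairpin sequences in the pGIPZ vector, and the labels do not say which of them a shUSP39 library carried, so an effect of the hairpin itself and the loss of its target cannot be told apart. USP39 is a splicing factor of the tri-snRNP, and the comparison asks which transcripts differ when it is depleted. These counts give no check of the knockdown, since the USP39 gene was not analysed here. The 3 libraries of a group are replicates by the submitters' description, and within-group correlations of log2 CPM (counts scaled to the size of the library) were 0.988 to 0.990. The study's methods describe stable lines selected with puromycin after infection. Whether the 3 libraries of a group came from 1 selected line or from separate infections is not given. If from 1 line, the p-values measure spread between its cultures and not between separate knockdowns. Total counts were 28294819 to 32939264 per library. Libraries shUSP39 2 and shUSP39 3 listed 15446 and 14890 genes with a count, against 12662 to 12819 in the other 4 libraries, and the main count of members is given below without both of them.

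Before S phase, the origin recognition complex (ORC), CDC6 and CDT1 load the MCM helicase on DNA, and geminin (GMNN) blocks CDT1 afterwards so that origins are licensed only in G1. CDC45 and the GINS complex then turn the MCM ring into an active helicase, DNA polymerase alpha with primase starts each strand, and polymerases delta and epsilon extend it on the PCNA clamp that replication factor C (RFC) loads. RPA covers the unwound strands, FEN1 and LIG1 finish the Okazaki fragments, and ribonucleotide reductase, thymidylate synthase and thymidine kinase supply deoxynucleotides. Many of these genes are known targets of E2F transcription factors, and proliferating tumour cells express them as a group.

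Promoter sequence is shown for the 4 members of different complexes with the strongest evidence of a lower count (RFC3, RPA1, MCM6 and TYMS) and for the 2 licensing factors that went opposite ways (CDT1 and CDC6). Each line gives the 150 bases before the gene's RefSeq start in GRCh38.p14, written 5′ to 3′ on the gene's strand. Capitals mark E2F words (TTTCCCGC, TTTCGCGC, TTTGCCGC or TTTGGCGC) and CCAAT boxes on either strand, and an E2F word that overlaps another is marked as 1 run.
RFC3: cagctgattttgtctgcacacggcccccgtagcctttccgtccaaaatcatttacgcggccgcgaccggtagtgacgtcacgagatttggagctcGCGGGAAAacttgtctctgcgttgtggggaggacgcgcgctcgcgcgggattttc
RPA1: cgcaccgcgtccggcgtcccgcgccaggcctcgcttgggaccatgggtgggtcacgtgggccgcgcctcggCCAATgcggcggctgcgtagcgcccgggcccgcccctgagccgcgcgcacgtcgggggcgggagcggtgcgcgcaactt
MCM6: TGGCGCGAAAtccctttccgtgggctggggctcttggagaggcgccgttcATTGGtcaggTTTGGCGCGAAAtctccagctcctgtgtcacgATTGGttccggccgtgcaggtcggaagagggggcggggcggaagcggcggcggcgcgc
TYMS: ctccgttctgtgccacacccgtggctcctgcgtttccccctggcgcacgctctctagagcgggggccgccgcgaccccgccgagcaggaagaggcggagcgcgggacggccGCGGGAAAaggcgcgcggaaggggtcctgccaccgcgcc
CDT1: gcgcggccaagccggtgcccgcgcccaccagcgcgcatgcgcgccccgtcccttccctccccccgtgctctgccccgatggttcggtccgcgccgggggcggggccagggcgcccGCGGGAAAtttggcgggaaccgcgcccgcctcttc
CDC6: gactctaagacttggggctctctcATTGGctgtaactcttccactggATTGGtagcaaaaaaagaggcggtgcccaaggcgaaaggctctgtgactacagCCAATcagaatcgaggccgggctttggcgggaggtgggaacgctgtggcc
The windows lie at chr13:33817999-33818148 (RFC3, plus strand), chr17:1829855-1830004 (RPA1, plus strand), chr2:135876444-135876593 (MCM6, minus strand), chr18:657503-657652 (TYMS, plus strand), chr16:88803639-88803788 (CDT1, plus strand) and chr17:40287729-40287878 (CDC6, plus strand).

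E2F words were present in the 250 bases before the start of 13 of the 39 listed members with a promoter sequence (33.3%), against 2.79% of 27305 promoters in the table and 4.33% of the 8318 promoters of tested genes. Where a gene had several starts, the first one listed was used. Among members called lower below, 9 of 14 promoters held such a word (64.3%), and among tested members not called 3 of 16 did (18.8%). Called members were mostly those with many counts, so this split is also one by depth. Uncalled members with few counts are not shown to be unchanged. The word GGGCGG (the GC box) split the other way, in 7 of 14 (50%) and 13 of 16 (81.2%). No link between a word and a change was tested. MCM6 had the most, with 4 matches in 2 runs, each an overlapping pair in opposite orientations, and the window cuts the first run at its left edge. RFC3, CDT1 and TYMS had 1 each, within 55 bases of the start, and RPA1 and CDC6 held none of these 4 words in this window. The CDC6 and CDT1 sequences also hold TTTGGCGG, which differs from a counted word in its last letter and was not searched for. CCAAT boxes were in 22 of 39 member promoters (56.4%) and in 33% of all promoters, and CDC6 had 3 of them. The word TTTGAA was in 1 member promoter (RRM1, 2.56% of members against 13.6% of all promoters and 7.97% of tested genes' promoters), and the GC box GGGCGG was in 69.2% of member promoters against 42.3% of all and 68.5% of tested genes' promoters. A match is a description of the letters and not a binding site, and the lack of a match does not show that a site is absent.

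Most replication genes that could be measured well were lower in shUSP39 cells, by modest amounts. In the quasi-likelihood fit of edgeR, with p-values adjusted over all 10695 genes by the Benjamini-Hochberg method, 15 of 36 tested members fell at adjusted p under 0.05, 1 rose (CDC6), and 20 were not called. The background was 17.5% of tested genes lower and 16.1% higher. The fitted changes of the 15 members that fell ran from -5.99 to -34.4 percent, with a median of -17.2 percent. No member passed the study's 2-fold limit, which 2.28% of tested genes passed downward and 4.53% upward. The median log2 fold change of the 36 was -0.12, against 0.01 over all tested genes. For genes with a mean of at least 1000 counts per library it was -0.18 for members and -0.05 over all tested genes. All 3 shUSP39 libraries were lower than all 3 pGIPZ-NC libraries for 17 tested members and higher for 1 member, against 22.5% and 21.7% of tested genes. Without libraries shUSP39 2 and shUSP39 3, a setting chosen after seeing the data in which the remaining shUSP39 library was assumed to vary like the controls, 10 of 37 tested members were lower and 1 was higher, where 10.8% of all tested genes were lower, and FEN1, GINS2, MCM3, ORC3 and RRM2 lost their calls. In bulk RNA, fewer cells in S phase and less of these mRNAs per cell cannot be told apart.

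**Figure D1:**
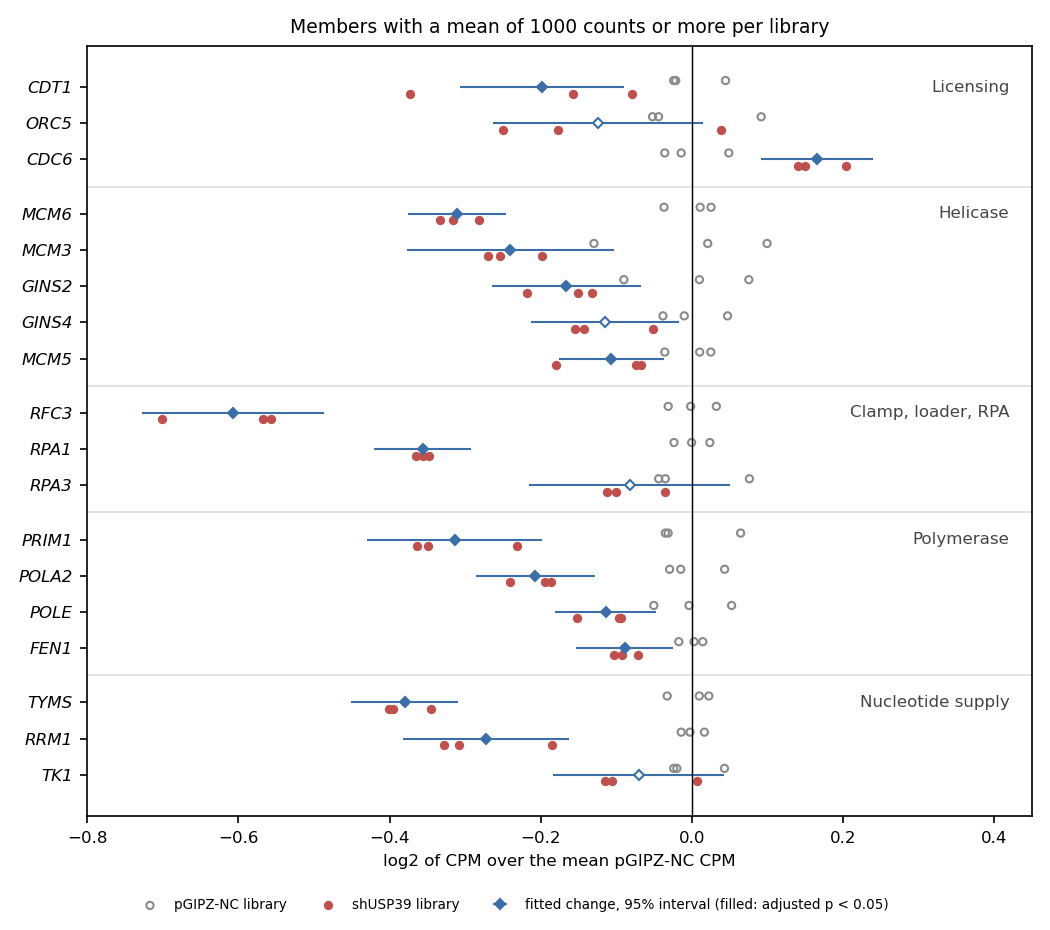
Replication genes with a mean of at least 1000 counts, by role. Open grey points are pGIPZ-NC libraries and red points shUSP39 libraries, on the log2 scale of CPM over the mean pGIPZ-NC CPM, and blue diamonds are fitted log2 fold changes with 95% intervals (filled at adjusted p under 0.05). All shUSP39 points of RFC3, RPA1, TYMS and MCM6 lie left of all control points, and those of CDC6 lie right of them.

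Called members were mostly those with many counts. Of the 18 members with a mean of at least 1000 counts per library, 13 fell, 1 rose and 4 were not called, where 33.1% of the 3779 tested genes of that depth fell and 19.7% rose. Their median standard error was 0.05 log2 units. Of the 18 tested members below that mean, 2 fell (ORC3 and RRM2) and 16 were not called, with a median standard error of 0.24. The low counts went with transcript annotation: the 10 members with 1 RefSeq mRNA accession all had means of 1420 to 19730 counts, whereas 28 members with several accessions ranged from 3.33 to 16280 with a median of 151. For 24 of the 38 members, at least 1 RefSeq mRNA accession was not analysed here. Among them RPA1, TYMS, POLA2, PRIM2 and TK1 were each represented by 1 of 3 accessions and RRM1 by 2 of 4. Their values and ratios below are those of the listed transcripts only. PCNA, a gene of every dividing cell, had both of its accessions in the table and a mean of only 119.5 counts. How the counting treated reads shared by transcripts is not given in the sources used here, so counts were compared between groups, for single genes or as ratios of a fixed pair of genes, and never as levels between genes. An uncalled member under 1000 counts is not shown to be unchanged.

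**Figure D2:**
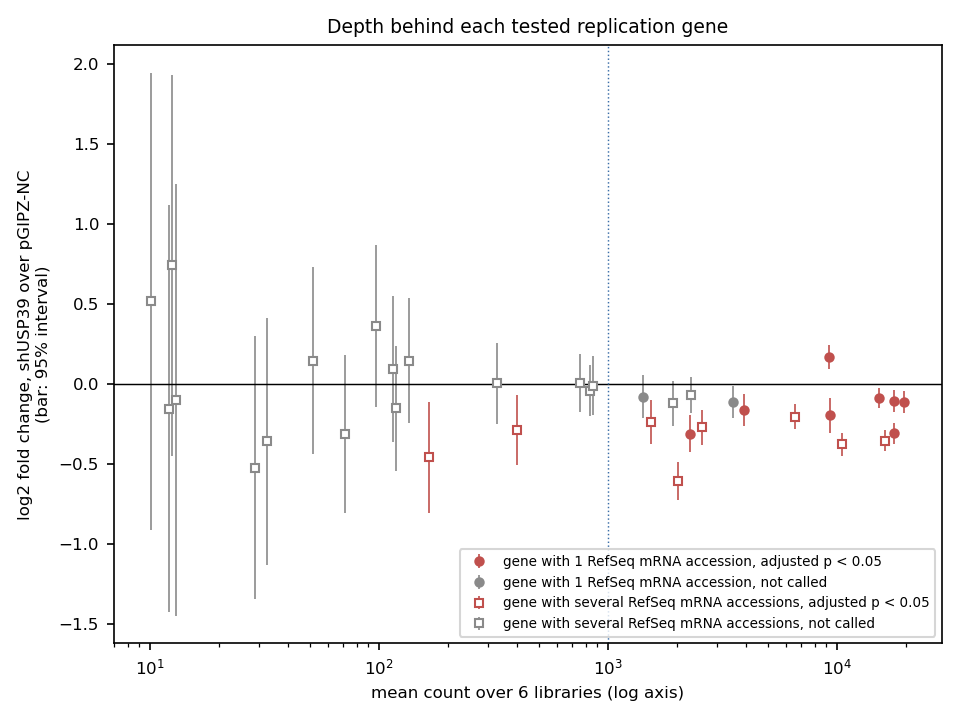
Fitted log2 fold change with its 95% interval (vertical axis) against the mean count over 6 libraries (horizontal log axis) for the 36 tested members. Filled circles are genes with 1 RefSeq mRNA accession and open squares genes with several, red where adjusted p was under 0.05, and the dotted line marks 1000 counts. The intervals widen leftward, and both red squares left of the line, ORC3 and RRM2, sit close to the threshold.

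Licensing genes moved in both directions. Of the 6 tested, ORC3 and CDT1 fell, CDC6 rose, and ORC4, ORC5 and GMNN were not called, with a group median of -0.08. Over all tested genes 17.5% fell and 16.1% rose. Of the 3 licensing genes with at least 1000 counts, 1 fell and 1 rose, where 33.1% and 19.7% of all genes of that depth did. Counts of the role groups below stand against the same shares. CDC6, the ATPase that helps ORC load MCM rings (chr17:38444131-38460909 in GRCh37, plus strand), stood at 293, 280 and 276 CPM in pGIPZ-NC cells and at 326, 314 and 312 CPM in shUSP39 cells. The groups did not overlap, and CDC6 was the only tested member that passed the test upward, by 12.1 percent (log2 fold change 0.17 ± 0.04 SE, adjusted p = 0.00105). CDT1, its partner in loading MCM, stood at 321, 320 and 336 CPM in the controls and 252, 292 and 308 CPM after knockdown. It fell by 12.8 percent (-0.20 ± 0.06, adjusted p = 0.00973), and library shUSP39 1 was the lowest. Its log2 fold change was -0.12 without shUSP39 1 and -0.37 without shUSP39 2 and shUSP39 3. The ratio of CDC6 to CDT1 counts was 0.912, 0.875 and 0.822 in pGIPZ-NC and 1.30, 1.07 and 1.01 in shUSP39, a comparison within libraries that no scaling between them can alter. CDC6 and CDT1 kept their calls in each of 18 alternative settings.

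ORC3, a core ORC subunit, rested on few counts, with 7.15, 5.63 and 5.84 CPM in the controls and 5.16, 4.28 and 4.09 CPM after knockdown. It fell by 27.3 percent, near the threshold (-0.46 ± 0.18, adjusted p = 0.0451). The call was lost without pGIPZ-NC 1 (adjusted p = 0.204), pGIPZ-NC 3 (0.0557), shUSP39 2 (0.121) or shUSP39 3 (0.143). Its row is 1 of 3 RefSeq transcripts. ORC5, with a mean of 1926 counts, was not called, with a 95% interval of -0.26 to 0.01. Without library shUSP39 1 it was called lower (-0.22 ± 0.07, adjusted p = 0.0169). Its log2 fold change was -0.099 without shUSP39 2, -0.065 without shUSP39 3 and 0.038 without both, so the estimate depended on those libraries. GMNN, the inhibitor of CDT1, changed least in the group, at 27.7, 26.3 and 29.1 CPM against 26.6, 26.8 and 27.2 CPM, with overlapping groups and an interval of -0.20 to 0.12.

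Among 10 tested helicase genes, MCM3, MCM5, MCM6 and GINS2 fell, none rose, and 6 were not called. Of the 5 with at least 1000 counts, GINS4 was the 1 not called. The group median of -0.11 sat between these and low-count members whose estimates reached 0.74, so it says little on its own. MCM6 (chr2:136597196-136634013, minus strand) stood at 647, 641 and 620 CPM in pGIPZ-NC and 523, 511 and 504.4 CPM in shUSP39. The libraries of the groups were far apart relative to their spread, and MCM6 fell by 19.4 percent (-0.31 ± 0.03, adjusted p = 2.64e-08). MCM5, another subunit of the same ring and the helicase gene with the most counts, stood at 587, 612 and 606 CPM against 531, 574 and 571 CPM. It fell by 7.13 percent (-0.11 ± 0.04, adjusted p = 0.0208), and the call was lost without pGIPZ-NC 2 (adjusted p = 0.0912), pGIPZ-NC 3 (0.0523) or shUSP39 1 (0.121). The ratio of MCM6 to MCM5 counts was 1.10, 1.05 and 1.02 in the controls and 0.985, 0.890 and 0.883 after knockdown, with no overlap between the groups. The MCM3 to MCM5 ratio overlapped, at 0.084, 0.095 and 0.091 against 0.089, 0.078 and 0.079.

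MCM3 was represented by 1 of 9 RefSeq transcripts, at 49.5, 58.0 and 54.9 CPM in pGIPZ-NC and 47.2, 44.9 and 45.4 CPM in shUSP39. It fell by 15.3 percent (-0.24 ± 0.07, adjusted p = 0.00835), with pGIPZ-NC 1 close to the shUSP39 libraries, and missed the threshold without pGIPZ-NC 2 (adjusted p = 0.0691). GINS2, a subunit of the tetramer that holds CDC45 on the MCM ring, stood at 142, 136 and 127 CPM against 123, 122 and 116 CPM. It fell by 10.9 percent (-0.17 ± 0.05, adjusted p = 0.0115) and missed the threshold without pGIPZ-NC 1 (0.0725) or shUSP39 3 (0.0648). GINS4 of the same tetramer stood at 116, 119 and 123 CPM against 108, 115 and 107 CPM, did not overlap between groups, and was not called (adjusted p = 0.0804). CDC45, MCM7 and GINS3 had means of 10.2 to 13 counts, and MCM4 and MCM10 of 97.5 and 136. CDC45 had the smallest estimate of the group, at 0.157, 1.02 and 0.106 CPM in the controls and 0.375, 0.327 and 0.507 CPM after knockdown, and its interval ran from -1.45 to 1.25.

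RFC3 and RPA1 were the called members of the clamp, loader and RPA group. Of 8 tested members both fell (25%, against 17.5% of all tested genes), none rose and 6 were not called. The group median was -0.24, and RFC2 was not tested. RFC3 (chr13:34392206-34540695, plus strand), a small subunit of the clamp loader, stood at 80.8, 77.3 and 79.0 CPM in pGIPZ-NC and 53.3, 48.6 and 53.7 CPM in shUSP39. It fell by 34.4 percent (-0.61 ± 0.06, adjusted p = 9.6e-09), the largest change among called members. RFC4, the loader subunit with the smallest change, stood at 32.5, 24.6 and 26.9 CPM against 28.3, 28.3 and 26.6 CPM, with overlapping groups and an interval of -0.20 to 0.17. The RFC3 to RFC4 count ratio was 2.49, 3.14 and 2.94 in the controls and 1.88, 1.72 and 2.02 after knockdown, with no overlap. RFC1 and RFC5 had means of 71.5 and 28.7 counts and were not called. RFC2 was counted 8, 5 and 1 times in pGIPZ-NC and 1, 2 and 3 times in shUSP39, too few to test.

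RPA1 (chr17:1732996-1803376, plus strand), the large subunit of the complex that coats unwound DNA, stood at 603, 593 and 583 CPM in the controls and 461, 466 and 464 CPM after knockdown. The groups lay far apart and RPA1 fell by 21.9 percent (-0.36 ± 0.03, adjusted p = 1.64e-09). RPA3, the small subunit of the same trimer, stood at 46.0, 49.97 and 46.3 CPM against 44.2, 46.3 and 43.9 CPM and was not called, with an interval of -0.22 to 0.05. The ratio of RPA1 to RPA3 counts was 13.1, 11.9 and 12.6 in pGIPZ-NC and 10.4, 10.1 and 10.6 in shUSP39. RPA2 had a mean of 12.2 counts and PCNA of 119.5, and neither was called.

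**Figure D3:**
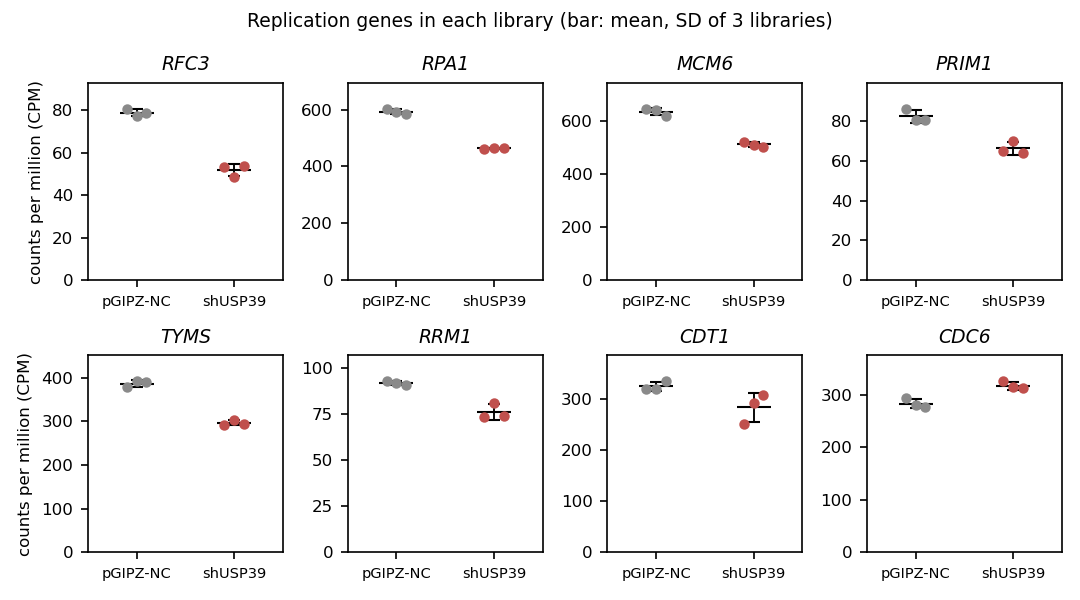
CPM in each library for 8 members of the 5 role groups, with each panel's vertical axis starting at 0. Grey points are pGIPZ-NC libraries, red points shUSP39 libraries, and black bars the mean and SD of 3. RFC3, RPA1, MCM6, PRIM1, TYMS, RRM1 and CDT1 were lower in every shUSP39 library and CDC6 was higher.

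The polymerase group held falls in primase, polymerase alpha and polymerase epsilon subunits. Of 8 tested members, PRIM1, POLA2, POLE and FEN1 fell, none rose and 4 were not called, with a median of -0.10. PRIM1, the catalytic primase subunit (chr12:57124222-57146158, minus strand), stood at 86.4, 80.8 and 80.6 CPM in pGIPZ-NC and 64.9, 70.3 and 64.2 CPM in shUSP39, and it fell by 19.5 percent (-0.31 ± 0.06, adjusted p = 0.000126). POLA2, the regulatory subunit of polymerase alpha, stood at 236, 226 and 224 CPM against 193.5, 201 and 199.9 CPM and fell by 13.4 percent (-0.21 ± 0.04, adjusted p = 0.000194). PRIM2, the other primase subunit, was not called (interval -0.18 to 0.18), and the PRIM1 to PRIM2 count ratio was 3.65, 3.21 and 3.23 in the controls and 2.35, 2.89 and 2.92 after knockdown.

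POLE, which extends the leading strand, stood at 644, 665 and 691 CPM against 599.5, 624 and 623.5 CPM. It fell by 7.6 percent (-0.11 ± 0.03, adjusted p = 0.0104) and missed the threshold without pGIPZ-NC 3 (0.0623). FEN1, the flap nuclease of Okazaki fragments, stood at 503, 515 and 510 CPM against 478, 474 and 485 CPM, the smallest called change of all members at -5.99 percent (-0.09 ± 0.03, adjusted p = 0.0375). Its call was lost when any 1 library but pGIPZ-NC 1 was left out, with adjusted p of 0.0544 to 0.12 in those 5 fits. POLD2, an accessory subunit of polymerase delta, stood at 10.1, 10.4 and 11.5 CPM against 12.1, 9.67 and 10.2 CPM and had the smallest change in the group. POLA1, POLD1 and PRIM2 had means of 32.5, 51.8 and 759.5 counts. POLE2, the accessory subunit of polymerase epsilon, was counted 10, 13 and 3 times in the controls and 3, 1 and 5 times after knockdown, too few to test.

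Nucleotide supply genes fell in 3 of 4 cases, with a group median of -0.28. TYMS (chr18:657653-673578, plus strand), which makes thymidylate, stood at 378, 393 and 389 CPM in pGIPZ-NC and 293, 304 and 294 CPM in shUSP39. It fell by 23.2 percent (-0.38 ± 0.04, adjusted p = 2.82e-09), the second change in size among the members at or above 1000 counts. RRM1, the large subunit of ribonucleotide reductase, stood at 93.0, 91.8 and 91.1 CPM against 73.3, 80.9 and 74.3 CPM and fell by 17.2 percent (-0.27 ± 0.06, adjusted p = 0.000336). RRM2, its small and cell-cycle-limited subunit, stood at 14.4, 14.6 and 14.1 CPM against 11.5, 11.4 and 12.3 CPM from 1 of 2 RefSeq transcripts. The groups did not overlap and the estimate was a change of -18.1 percent, but its adjusted p of 0.0464 lay near the threshold (-0.29 ± 0.11) and rose to 0.0555 to 0.121 without any 1 of the 6 libraries. The RRM1 to RRM2 count ratio overlapped between groups, at 6.48, 6.30 and 6.46 against 6.37, 7.09 and 6.02. TK1, the salvage kinase for thymidine, stood at 75.7, 79.1 and 75.5 CPM against 70.9, 71.4 and 77.2 CPM and was not called, with an interval of -0.18 to 0.04.

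Across 18 alternative settings (or fewer where a gene was not tested in one), the members that kept their call in every setting were RFC3, RPA1, TYMS, MCM6, PRIM1, RRM1, POLA2, CDT1 and CDC6. All 16 called members kept their direction in every setting run. Under upper-quartile scaling FEN1, GINS2, MCM5, ORC3, POLE and RRM2 were no longer called. Ratios of gene pairs were looked at after their values were seen, and carry no test. How often the ratio of any other gene pair separates the groups was not examined.

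Other genes of the same pathways, on lists drawn up with earlier results of these data known, also had more falls than rises. Their counts stand against the background of 17.5% of all tested genes lower, or 33.1% at 1000 counts or more. Of 29 tested factors of origin firing and fork progression, 20 fell and none rose, with a median of -0.25, and of those with at least 1000 counts 15 of 17 fell. The 4 largest changes were in PCLAF, the PCNA-binding factor, at 40.7, 44.2 and 42.3 CPM against 25.8, 22.6 and 25.6 CPM (-0.78 ± 0.08, adjusted p = 1.1e-08), in WDHD1, which ties polymerase alpha to the helicase (-0.78 ± 0.17, 0.000647), in the nuclease DNA2 (-0.65 ± 0.14, 0.000375) and in TICRR, which helps fire origins (-0.63 ± 0.23, 0.0319). TICRR rested on a mean of 101 counts, and its call was lost without pGIPZ-NC 1 (adjusted p = 0.0848), pGIPZ-NC 2 (0.155) or shUSP39 3 (0.127). Of 9 tested genes of nucleotide synthesis, 5 fell and none rose, with a median of -0.16, and 3 of 4 with at least 1000 counts fell. IMPDH2, the entry enzyme to guanine nucleotides, stood at 610, 611 and 616 CPM in pGIPZ-NC and 407, 395 and 386 CPM in shUSP39 (-0.63 ± 0.03, adjusted p = 3.16e-14). CAD, which starts pyrimidine synthesis, changed by -0.51 ± 0.09 (5.01e-05) and the dUTPase DUT by -0.21 ± 0.06 (0.00796). DUT missed the threshold without pGIPZ-NC 2 (0.0523). GART, a purine synthesis enzyme, had an estimate of -0.29 ± 0.11 (adjusted p = 0.0386) with overlapping groups, and its call was lost without pGIPZ-NC 1 (0.203), pGIPZ-NC 2 (0.0897), shUSP39 1 (0.081) or shUSP39 2 (0.226).

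Of 17 tested regulators of S-phase entry, 8 fell and none rose, with a median of -0.17. At 1000 counts or more 4 of 10 fell, near the background of genes of that depth. RB1, the retinoblastoma repressor of E2F, stood at 84.7, 83.8 and 83.9 CPM against 62.3, 61.8 and 60.9 CPM (-0.45 ± 0.06, adjusted p = 3.53e-07), and the CDK inhibitor CDKN1B changed by -0.33 ± 0.05 (1.48e-05). Both restrain S-phase entry. E2F8, an atypical repressor, changed by -0.57 ± 0.17 (0.00887) and CUL4B, a scaffold of the ligase that degrades CDT1, by -0.46 ± 0.16 (0.0264). E2F8 was not called without pGIPZ-NC 3 (adjusted p = 0.0888), nor CUL4B without pGIPZ-NC 2 (0.153) or shUSP39 2 (0.0763) or shUSP39 3 (0.0508). E2F1, the activator of many replication genes, was not called, with an interval of -0.18 to 0.04, and neither was CCNA2, the S-phase cyclin (adjusted p = 0.142). E2F2 (adjusted p = 0.0572), E2F3, E2F4 and E2F7 were not called either. TFDP1, on the same list, fell (-0.32 ± 0.08, adjusted p = 0.0046). Of 16 tested mitosis genes 6 fell and none rose, with a median of -0.08, and the 6 were among 10 with at least 1000 counts. KIF11, a spindle motor, changed by -0.36 ± 0.04 (adjusted p = 1.18e-07), BUB1B by -0.24 ± 0.04 (1.52e-05), KIF20A by -0.20 ± 0.04 (0.000188) and CCNB1 by -0.14 ± 0.03 (0.00172). MKI67 and PLK1 were not called, with intervals of -0.09 to 0.15 and -0.08 to 0.05.

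**Figure D4:**
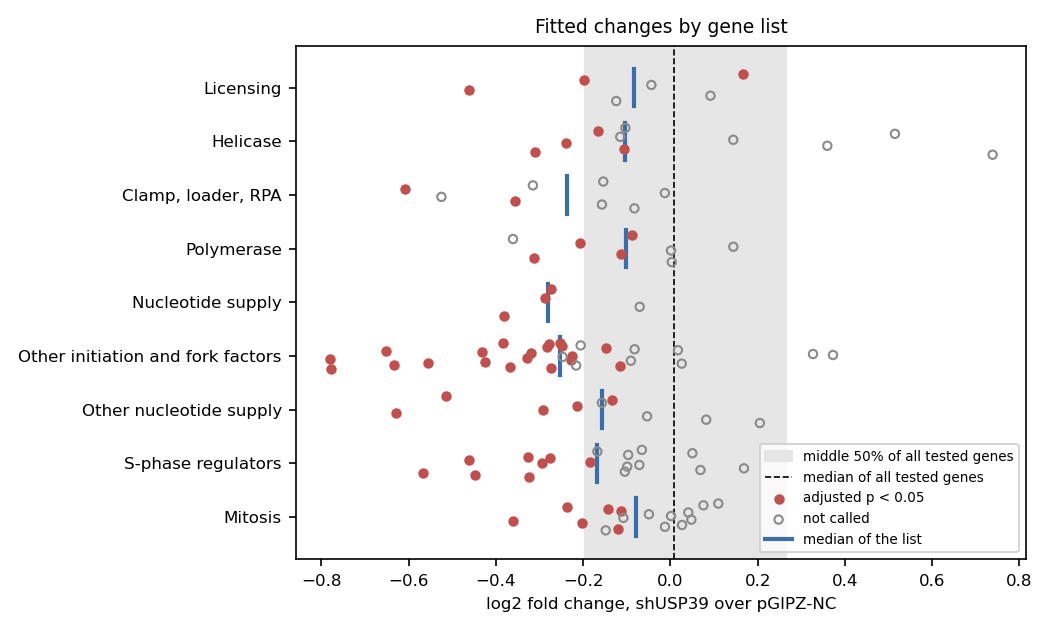
Fitted log2 fold change of shUSP39 over pGIPZ-NC (horizontal axis) for each tested gene of 9 lists. Red points passed adjusted p under 0.05, open points did not, blue bars are list medians, and the grey band and dashed line give the middle 50 percent and median of all tested genes. List medians run from -0.28 for nucleotide supply to -0.08 for licensing and mitosis, left of the all-gene median of 0.01. The all-gene median was -0.05 for genes with a mean of at least 1000 counts and 0.06 below that, and the list medians are not matched on depth.

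At the transcript level, 45 of 49 member transcripts were tested, 13 fell and 1 rose at adjusted p under 0.05 over 12553 transcripts, where 15.1% fell and 14.2% rose. ORC3 and RRM2 were not called in this fit. Splicing of these genes could be compared only through the share of each listed transcript. Of 1628 genes with several tested transcripts, 3.69% had changed usage at adjusted p under 0.05 (edgeR's diffSpliceDGE), and none of the 8 members in that test did, although POLD1 and POLD2 had unadjusted p of 0.035 and 0.0322 (adjusted p = 0.283 for both). In POLD1, the catalytic subunit of polymerase delta, 1 transcript took 42.3, 44 and 45.7 percent of the gene's counts in pGIPZ-NC and 22.6, 33.3 and 20.3 percent in shUSP39, from only 12 to 22 counts a library. In POLD2, the lesser of 2 transcripts took 31.1, 25.2 and 28 percent in the controls and 22.0, 14.9 and 22.1 percent after knockdown. The third smallest p was that of GMNN (unadjusted p = 0.42), whose main transcript held 97.1 to 98.4 percent in every library. RFC3 had 2 transcripts with almost equal estimates, -0.60 ± 0.06 and -0.66 ± 0.41, and the main one held 98.3 percent of the counts in both groups. Retained introns and unspliced reads were not analysed here.

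Markers of the labelled tissue and of other cells were checked. Of the 9 ovarian and epithelial markers, PAX8, EPCAM and MSLN had means of 2.17, 3.17 and 0.333 counts, WT1 was not analysed here, and the list summed to 47.2 to 49.6 CPM in pGIPZ-NC and 34.5 to 41.2 CPM in shUSP39. KRT18 rose (0.56 ± 0.09) and KRT19 fell (-3.64 ± 0.14). KRT8 fell from 28, 37 and 26 counts to 3, 0 and 0. MUC16, which was not tested, had 5, 1 and 1 counts in pGIPZ-NC and 6, 150 and 71 in shUSP39, high in the 2 libraries that list more genes. Leukocyte markers summed to 0.188 to 0.531 and 0.219 to 0.817 CPM, and endothelial markers to 0.354 to 0.439 and 0.406 to 1.73 CPM. Fibroblast-associated genes summed to 1431 to 1481 CPM in the controls and 789 to 839.5 CPM after knockdown, nearly all of it COL3A1, which fell (-0.84 ± 0.03). DCN fell from 31, 22 and 49 counts to 0, 1 and 6, COL1A1 was not called, and PDGFRA had a mean of 1.17 counts. The part of these differences in the changes of replication genes was not tested.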

How the data were processed

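The authors deposited 1 table of raw counts per RefSeq mRNA transcript with 1 column for each of 6 libraries (totals of 28294819 to 32939264). The submitters' processing notes name hg19, HISAT2 and Cufflinks. The counter, annotation release, strand use and treatment of shared reads are not given in the sources used here. The authors' other columns hold group means, a fold, a p-value and a q-value and were not used. Groups and replicate numbers came from the labels. Counts were summed per gene name (46 names turned into dates by a spreadsheet were replaced through their accessions) and tested with edgeR 4.0.16 in R 4.3.3 (filterByExpr, TMM, robust quasi-likelihood fit, group only). P-values were adjusted over all 10695 tested genes. CPM used TMM library sizes, and intervals are 95% normal intervals from the standard error. Transcripts were fitted likewise, and usage with diffSpliceDGE. Gene positions are from GENCODE 44 lifted to GRCh37, and promoter sequences and accession numbers per gene from RefSeq (GRCh38.p14). The scripts were tested on simulated data with changes larger than most called changes of members, so recovery of smaller changes was not examined.

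Members and lists were chosen with earlier results of these data known. Values per library were given for up to 5 called members of each role group with the largest change, the member with the most counts, the member with the smallest change and members that did not pass the filter. From each other pathway list up to 4 called genes with the largest change were named, and other named genes were chosen after their values were seen. Replicates with the same number did not deviate together (correlations 0.0688, 0.00477 and 0.0216 over 10695 genes). Alternatives were other scalings and filters, DESeq2 1.42.0, limma-voom 3.58.1, a replicate block, each library left out, other transcript choices and, added after seeing the data, genes with every accession in the table and the fit without 2 libraries.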

Additional observations from a re-analysis of the deposited data

How the results depend on the processing

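Of 15 members lower in the main analysis, 9 were called under upper-quartile scaling and 10 to 12 with 1 library left out. Under upper-quartile scaling the median log2 fold change of members was -0.075, and that of all genes moved from 0.01 to 0.05. In that fit 14% of all tested genes were lower, against 17.5% in the main fit. Leaving out 1 library gave 10 to 13 lower members in all, the 13 with ORC5 as an added call without shUSP39 1. In those fits 14.6% to 16.5% of all tested genes were lower. When only genes with every RefSeq mRNA accession were tested, 8 of 14 members were lower, against 24% of all genes in that fit. Without shUSP39 2 and shUSP39 3 the median was -0.18. With the replicate number as a block 16 were lower and 1 higher, where 19.4% of all tested genes were lower, and GINS4 was the added call. The numbers do not pair the libraries, so this fit is a check only. CDC6 stayed the 1 member called higher in all 18 settings, and no member passed 2-fold in any. Directions turned for some uncalled values. ORC5, at -0.12 in the main fit, was at 0.038 without shUSP39 2 and 3. The helicase median was 0.021 with limma-voom and 0.025 with the block. GMNN was at 0.001 under upper-quartile scaling. CDC45, on a mean of 13 counts, was at 0.509 with limma-voom, 0.342 with the block and -0.546 to 1.57 with 1 library left out. RFC4 was at 0.032 under upper-quartile scaling, 0.013 with library size only, 0.018 without shUSP39 2 and 3, and -0.104 to 0.108 with 1 library left out. POLD2 was at -0.004 with no filter, -0.002 with the block and -0.103 to 0.067 with 1 library left out. The causes were not tested. Depth limits members under 1000 counts, whose 95% intervals reached from -1.45 to 1.94 log2 units.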
